A study of Homo sapiens with 3 samples.

Results

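The transcriptomes of a bone marrow stromal cell line and a myeloma plasma cell line, each grown alone, were compared in 7679 cells of 11535 in the whole series (3732 of HS-5 and 3947 of MM.1S). The members are all cell barcodes with at least 200 detected genes in the 2 monoculture libraries. Their unique molecular identifiers (UMIs, tags that count each captured RNA molecule once) were added up over each line's cells, and a gene's sum is given per 1000000 UMIs (CPM). HS-5 is an established line of human bone marrow stromal cells that was made immortal with papillomavirus oncogenes, and MM.1S is an established human multiple myeloma line grown in suspension. Neither culture received a treatment, and cells were captured by Drop-seq, in which each cell shares a droplet with a barcoded bead. HS-5 was kept in DMEM and MM.1S in RPMI medium without phenol red, both with fetal bovine serum. Each line is 1 library, so line, medium, adherence and library cannot be told apart, no difference has a replicate check, and no test was made. All intervals are 95% intervals and cover counting error only. Whether the captured cells carried a fluorescent reporter is not given in the sources used here.

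Marrow stromal cells are mesenchymal cells that build and remodel the collagenous matrix and secrete cytokines and chemokines for the blood-forming cells around them. Plasma cells are the antibody factories of the B lineage. The factors IRF4, PRDM1 and XBP1 switch off the B cell programme and widen the endoplasmic reticulum, so that immunoglobulin chains can be folded, joined and exported in bulk. In the marrow, plasma cells and their malignant counterparts depend on stromal signals such as IL-6, APRIL and CXCL12.

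The HS-5 library held 3865 barcodes with a median of 972 UMIs in the cells kept, and the MM.1S library 3994 barcodes with a median of 2201. The sums were 6142273 and 10433017 UMIs, so that 3 counts, the upper limit that a count of 0 allows, are worth 0.488 CPM in HS-5 and 0.288 CPM in MM.1S. The gene minimum removed few cells, with 2 HS-5 barcodes in the 10 genes just below it and 3 in the 10 from it upward, and no MM.1S barcode in either range. Only 2 barcodes occurred in both libraries. Ribosomal protein genes took 18.8% of the UMIs in MM.1S and 7.54% in HS-5, and mitochondrial genes 6.82% and 2.79%. Abundant transcripts of 1 line were rare in the other library. IGLC2, with 381345 UMIs in MM.1S, had 0 among the UMIs of HS-5, and MMP1, with 69758 UMIs in HS-5, had 1 in MM.1S. JCHAIN, with 69529 in MM.1S, had 6 in HS-5, and MT2A, with 27734 in HS-5, had 32 in MM.1S.

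Of the 8734 genes whose mean over both lines reached 10 CPM, a minority differed by at least 4-fold. There were 1635 such genes higher in HS-5 (18.7% of the genes tested) and 595 higher in MM.1S (6.81%). A difference of at least 32-fold was found in 254 genes higher in HS-5 (2.91%) and 98 higher in MM.1S (1.12%). The other 6504 genes lay within 4-fold, 2145 of them within 0.5 on the log2 scale. Log2 ratios are of HS-5 CPM + 1 over MM.1S CPM + 1, and the counts past 4-fold and 32-fold use them. Folds printed for a gene are ratios of CPM with nothing added. The median log2 ratio over all genes was 0.56, and scaling by the trimmed mean of M values (TMM), by median ratios or by CPM without immunoglobulin, mitochondrial and ribosomal protein genes moved it by -0.50, -0.55 and -0.37. The HS-5 share of the genes past 4-fold was 73.3% under CPM and 55.6%, 54.1% and 59.1% under these scalings. No gene past 4-fold changed direction. The genes at least 32-fold higher in HS-5 held 8.9% of the UMIs of HS-5 and 0.0443% of those of MM.1S. The genes at least 32-fold higher in MM.1S held 8.2% of the UMIs of MM.1S and 0.0179% of those of HS-5.

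**Figure D1:**
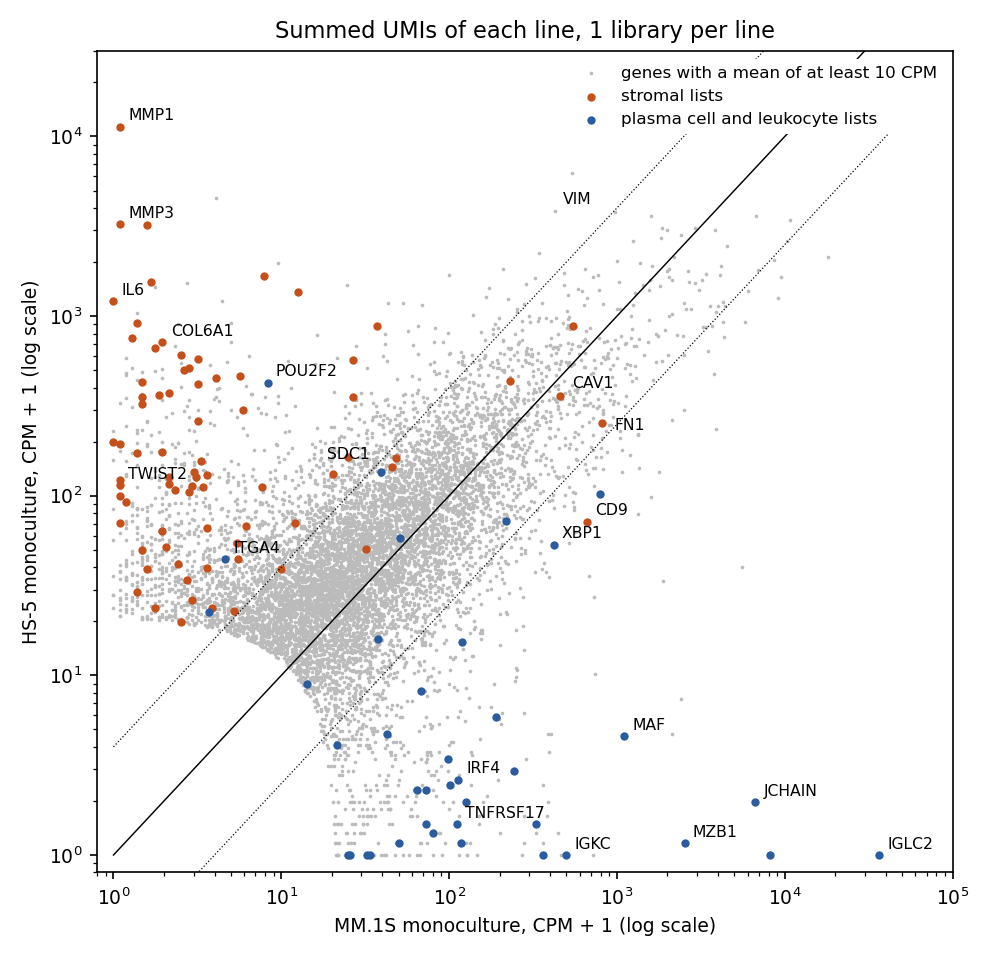
Each point is a gene whose mean reached 10 CPM, at its CPM + 1 in MM.1S (x axis, log scale) and HS-5 (y axis, log scale). Orange points are members of the matrix, mesenchymal antigen, remodelling, secretome and mesenchymal transcription factor lists, blue points members of the plasma cell and leukocyte lists, the solid line marks equal levels and the dotted lines 4-fold, and FN1 and CD9 (orange) and POU2F2, ITGA4 and SDC1 (blue) lie on the other line's side.

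Markers of each line's labelled type were carried by that line with exceptions on both sides. Of 12 stromal markers, 8 were at least 4-fold higher in HS-5 and none in MM.1S, and of 11 plasma cell markers 7 were at least 4-fold higher in MM.1S and none in HS-5, where 18.7% and 6.81% of all genes were past 4-fold towards HS-5 and MM.1S. COL6A1, a chain of the microfibrillar collagen VI, had 716 CPM in HS-5 and 0.958 CPM in MM.1S, a ratio of 747-fold (interval 406 to 1559). COL1A1, the main chain of fibrillar collagen I, had 498 CPM in HS-5 and 1.63 CPM in MM.1S. The ecto-nucleotidase NT5E (CD73), an antigen used to define mesenchymal stromal cells, had 259.7 CPM in HS-5 and 2.2 CPM in MM.1S. SPARC, THY1, ENG, COL1A2 and COL6A2 were likewise high in HS-5 and at 0.479 to 3.07 CPM in MM.1S.

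On the plasma cell side, JCHAIN, which joins IgA and IgM into polymers, had 6664 CPM in MM.1S and 0.977 CPM in HS-5, and MZB1, a chaperone of immunoglobulin assembly, had 2526 CPM in MM.1S and 0.163 CPM in HS-5. TNFRSF17 (BCMA), the receptor for APRIL, had 111 CPM in MM.1S and 0.488 CPM in HS-5 and CD38, an ectoenzyme of plasma cells, 125 CPM in MM.1S and 0.977 CPM in HS-5. IRF4 had 112 CPM in MM.1S and 1.63 CPM in HS-5. Each of these 5 genes was under 2 CPM in HS-5.

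Other markers did not follow the label. Fibronectin (FN1) was higher in the myeloma line, with 810.3 CPM (interval 793 to 828) against 252 CPM in HS-5 (239.6 to 265), a difference past 4-fold with each of the 3 other scalings, and the caveolar protein CAV1 lay within 4-fold, with 457 CPM in MM.1S and 356 in HS-5. Syndecan-1 (SDC1, CD138), the surface antigen by which plasma cells are usually sorted, had 135 CPM in HS-5 and 38.1 CPM in MM.1S, 3.53-fold (interval 3.13 to 3.99) higher in the stromal line. The common leukocyte antigen PTPRC (CD45) was at 1.44 CPM in MM.1S and 1.79 in HS-5, and SLAMF7 at 2.01 and 1.14. COL3A1 and TAGLN, stromal markers, were at 4.88 and 0.326 CPM in HS-5 and 2.78 and 0.288 in MM.1S.

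Cell by cell, the markers followed the label. With each cell thinned to 1000 UMIs, 1802 HS-5 cells and 3870 MM.1S cells were deep enough, and 1930 and 77 shallower cells were left out. HS-5 cells held 0 to 18 UMIs of the stromal markers (median 3) and 0 to 3 of the plasma cell markers (median 0). MM.1S cells held 0 to 37 UMIs of the plasma cell markers (median 10) and 0 to 9 of the stromal ones (median 1). More UMIs of the other line's markers than of their own were found in 13 HS-5 cells (0.721%, exact Clopper-Pearson interval 0.385 to 1.23%) and 32 MM.1S cells (0.827%, 0.566 to 1.17%). Without FN1, CAV1 and SDC1, a choice made after their values were seen, the numbers were 10 HS-5 cells and 0 MM.1S cells, the latter allowing a share of up to 0.0775% by the limit of 3 counts (exact upper bound 0.0953%). The share moved with the depth. At 500 UMIs a cell, which keeps 3515 HS-5 cells, it was 2.5% in HS-5 and 1.72% in MM.1S. In HS-5, 136 of the cells thinned to 1000 UMIs held equal numbers of both, 75 of them with neither.

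**Figure D2:**
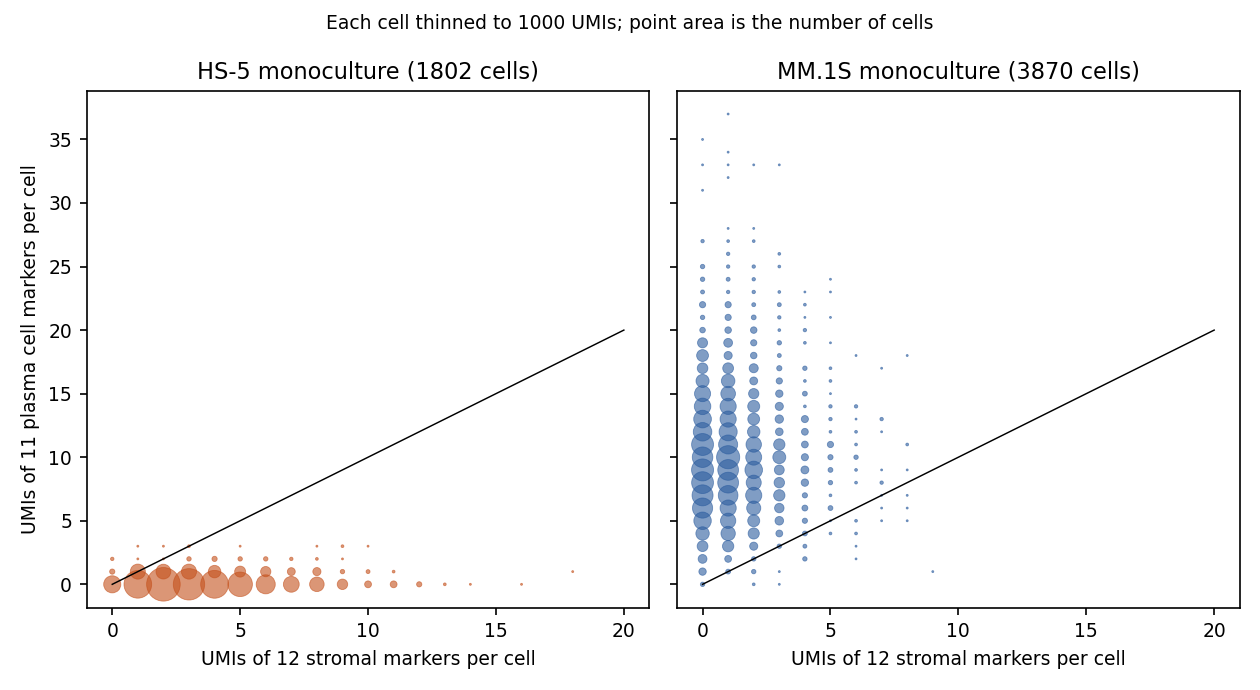
UMIs of the 12 stromal markers (x axis) and of the 11 plasma cell markers (y axis) per cell, in HS-5 (left) and MM.1S (right), after thinning every cell to 1000 UMIs. The area of a point is the number of cells and the line marks equal numbers; HS-5 cells lie along the x axis with at most 3 plasma cell UMIs, and MM.1S cells spread upward to 37.

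The shares of cells with a UMI repeated this order. JCHAIN was detected in 98.4% of thinned MM.1S cells and 0.111% of HS-5 cells, and MZB1 in 87% and 0%. The stromal marker found in most HS-5 cells was COL6A1, in 49.8% against 0.0517% of MM.1S cells. The share in the other line, thinned to the same depth, is given as background, and free RNA within a library was not measured. Without thinning, at the median depths given above, the shares were 99.5% and 0.161% for JCHAIN and 56.1% and 0.076% for COL6A1, each in the higher line first.

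The largest ratios belonged to secreted enzymes and cytokines in HS-5 and to immunoglobulin in MM.1S. Among genes whose mean reached 100 CPM, the 10 with the highest ratios were MMP1, MMP3, TFPI2, IL6, MT2A, IL1B, STC1, CLDN11, CSF3 and CXCL5. The 10 with the lowest were IGLC2, IGLC3, JCHAIN, MZB1, PVALB, IGKC, PRSS2, S100A4, IGLC7 and SPINT2. Sequences of the region before the start of a few of these and of listed genes, taken from RefSeq (GRCh38.p14), are shown for the motifs of factors with known roles in these lineages. They give the 250 bases that end just before the start of the gene, 5′ to 3′ on its strand, in lower case with the motif in capitals.

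MT2A, a metal-binding metallothionein higher in HS-5 (chr16:56608334-56608583, plus strand), and CXCL8, a neutrophil chemokine higher in HS-5 (chr4:73740319-73740568, plus strand), with an AP-1 motif read on the other strand:
MT2A: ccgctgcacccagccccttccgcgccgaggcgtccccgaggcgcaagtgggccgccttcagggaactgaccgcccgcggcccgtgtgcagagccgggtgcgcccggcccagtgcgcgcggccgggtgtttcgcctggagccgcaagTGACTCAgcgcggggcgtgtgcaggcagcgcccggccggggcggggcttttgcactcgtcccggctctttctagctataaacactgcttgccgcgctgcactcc
CXCL8: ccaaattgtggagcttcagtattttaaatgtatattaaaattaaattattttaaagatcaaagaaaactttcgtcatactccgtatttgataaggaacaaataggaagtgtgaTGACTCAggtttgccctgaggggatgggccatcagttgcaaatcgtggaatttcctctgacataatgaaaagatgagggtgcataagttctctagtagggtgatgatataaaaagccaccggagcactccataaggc
SPARC, a collagen-binding matrix protein higher in HS-5 (chr5:151686916-151687165, minus strand), with a TEAD motif read on the other strand:
SPARC: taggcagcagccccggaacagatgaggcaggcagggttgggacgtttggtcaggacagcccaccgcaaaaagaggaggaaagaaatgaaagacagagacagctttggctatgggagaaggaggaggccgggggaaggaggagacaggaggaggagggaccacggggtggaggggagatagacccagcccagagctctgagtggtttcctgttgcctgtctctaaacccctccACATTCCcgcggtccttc
JCHAIN, higher in MM.1S (chr4:70666509-70666758, minus strand), with an AP-1 motif, and CD53, a leukocyte tetraspanin higher in MM.1S (chr1:110870960-110871209, plus strand), with the octamer of the OCT factors, at the first of its 2 starts:
JCHAIN: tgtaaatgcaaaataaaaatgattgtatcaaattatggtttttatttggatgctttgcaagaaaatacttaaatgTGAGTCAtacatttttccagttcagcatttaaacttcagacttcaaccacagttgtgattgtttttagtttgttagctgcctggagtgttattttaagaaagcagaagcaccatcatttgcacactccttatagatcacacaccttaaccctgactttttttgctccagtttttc
CD53: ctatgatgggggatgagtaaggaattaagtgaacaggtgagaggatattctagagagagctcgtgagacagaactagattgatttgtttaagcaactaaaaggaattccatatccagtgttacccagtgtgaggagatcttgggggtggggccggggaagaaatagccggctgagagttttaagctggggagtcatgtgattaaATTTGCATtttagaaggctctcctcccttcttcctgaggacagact

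The motifs searched in the promoters were AP-1 (TGAGTCA), the octamer (ATTTGCAT), an XBP1 site (TGACGTGG), an NF-kB site (GGGACTTTC) and TEAD (GGAATGT), on both strands from 250 bases before to 50 after each start. None of these letter strings is contained in another. A promoter was in the table for 7058 of the genes tested, for 189 genes at least 32-fold higher in HS-5 and for 58 at least 32-fold higher in MM.1S. At least 1 promoter with the AP-1 letters was held by 10.6% of those HS-5 genes (20), 6.9% of the MM.1S genes (4) and 4.55% of all genes tested. For TEAD the shares were 5.82%, 3.45% and 3.09%, and for the octamer 1.59%, 5.17% and 1.57%. The NF-kB letters were found in 0 of the HS-5 genes, 1 of the MM.1S genes and 0.484% of all genes, and those of XBP1 in 1, 0 and 1.37%. Counts in the smaller sets are low, and a match says only that these letters are present. Each motif was searched as a single fixed string, so binding sites with other letters were missed. A lack of matches therefore does not show that a gene has no such site.

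Matrix-degrading enzymes and their regulators were mostly far higher in HS-5. Of 15 genes, 14 passed the minimum level and 13 of them were at least 4-fold higher in HS-5, with a median log2 ratio of 6.32 against 0.56 for all genes. A gene near 0 in 1 line passes the minimum only if it is high in the other, so such counts and medians describe these libraries and are no test. The counts of each list stand beside 18.7% and 6.81% of all genes at least 4-fold higher in HS-5 and in MM.1S. MMP1, the interstitial collagenase (GRCh38, chromosome 11, 102789920 to 102798160 on the minus strand), had 11357 CPM in HS-5 (11273 to 11442) and 1 UMI in MM.1S, and was found in 99.1% of thinned HS-5 cells. MMP3, stromelysin (chromosome 11, 102835801 to 102843803 on the minus strand), had 3259 CPM in HS-5 and also 1 UMI in MM.1S. The ratio of MMP1 was 118488-fold (interval 21266 to 4680100), an interval whose width comes from that lone UMI.

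TFPI2, a protease inhibitor of the matrix, had 3206 CPM in HS-5 and 0.575 CPM in MM.1S, and the cathepsin CTSL 429 CPM in HS-5 and 0.479 CPM in MM.1S. MMP14, the membrane-bound activator of other metalloproteases, had 374 CPM in HS-5 and 1.15 CPM in MM.1S. PLAU and PLAUR, urokinase and its receptor, were 110.0-fold (interval 62.6 to 214) and 67.2-fold (interval 44.9 to 105) higher in HS-5. The tissue inhibitors differed less between the lines. TIMP1 lay within 4-fold (435 CPM in HS-5 and 230.0 CPM in MM.1S), TIMP2 was 6.78-fold (interval 5.8 to 7.95) higher in HS-5, and TIMP3 was near 0 in both (1.47 and 0.479 CPM).

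The inflammatory secretome had a median log2 ratio of 6.88. Of 21 cytokines, chemokines and related factors, 18 passed the minimum, all 18 of these were at least 4-fold higher in HS-5, and 14 at least 32-fold. IL6, a growth factor for myeloma cells (chromosome 7, 22725884 to 22732002 on the plus strand), had 1209 CPM in HS-5 (1182 to 1237, 7429 UMIs) and 0 UMIs in MM.1S, at least 4206-fold higher by the limit of 3 counts. IL1B (chromosome 2, 112829751 to 112836903 on the minus strand) had 1545 CPM in HS-5 and 0.671 CPM in MM.1S, and CSF3, the granulocyte colony-stimulating factor, 917 CPM in HS-5 and 0.383 CPM in MM.1S. These transcripts were frequent in HS-5 and all but undetected in MM.1S. They are RNA levels, and secreted protein was not measured in these libraries. In supernatants of untreated HS-5, the paper found IL6, CXCL8 and CXCL5 protein and very little IL1B. It found hardly any of most other factors that activate NF-kB. The exons of IL6 share 428 bases with an antisense gene. Among the 3 members under the minimum, TNFAIP6 had 19.4 CPM and LIF 14.7 CPM in HS-5.

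The 6 CXC chemokines of this list were also at least 4-fold higher in HS-5. CXCL8 had 1664 CPM in HS-5 and 6.9 CPM in MM.1S, CXCL5 757 CPM in HS-5 and 0.288 CPM in MM.1S and CXCL3 354 CPM in HS-5 and 0.479 CPM in MM.1S. CXCL2 had 199.1 CPM in HS-5 and 0 UMIs in MM.1S (at least 692-fold higher). The smallest ratio among those past the minimum was that of CCL2, a monocyte chemokine, with 21.8 CPM in HS-5 and 4.22 CPM in MM.1S and a log2 ratio of 2.13, which fell under 4-fold with the other scalings. CXCL8 was found in 59.5% of thinned HS-5 cells and 0.594% of MM.1S cells.

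Within the HS-5 cells these genes differed in the spread of their UMI counts. MMP1 had a median of 11 UMIs per thinned cell and a highest value of 43, and a variance of 2.63 times its mean. PTGS2, the inducible cyclooxygenase, was found in 10.3% of thinned cells with up to 18 UMIs and a variance of 3.66 times its mean. CXCL8, at 3.01 times, and IL6, at 2.73 times, also had larger ratios of variance to mean than COL1A1 at 1.18 or NT5E at 1.05. Where cells differ, this ratio rises with a gene's level, so it does not rank the evenness of genes of unlike level. MMP1 was found in 99.1% of thinned HS-5 cells and COL1A1 in 38.7%. A ratio of 1 is what random capture alone would give. The share of free RNA in these values was not tested.

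**Figure D3:**
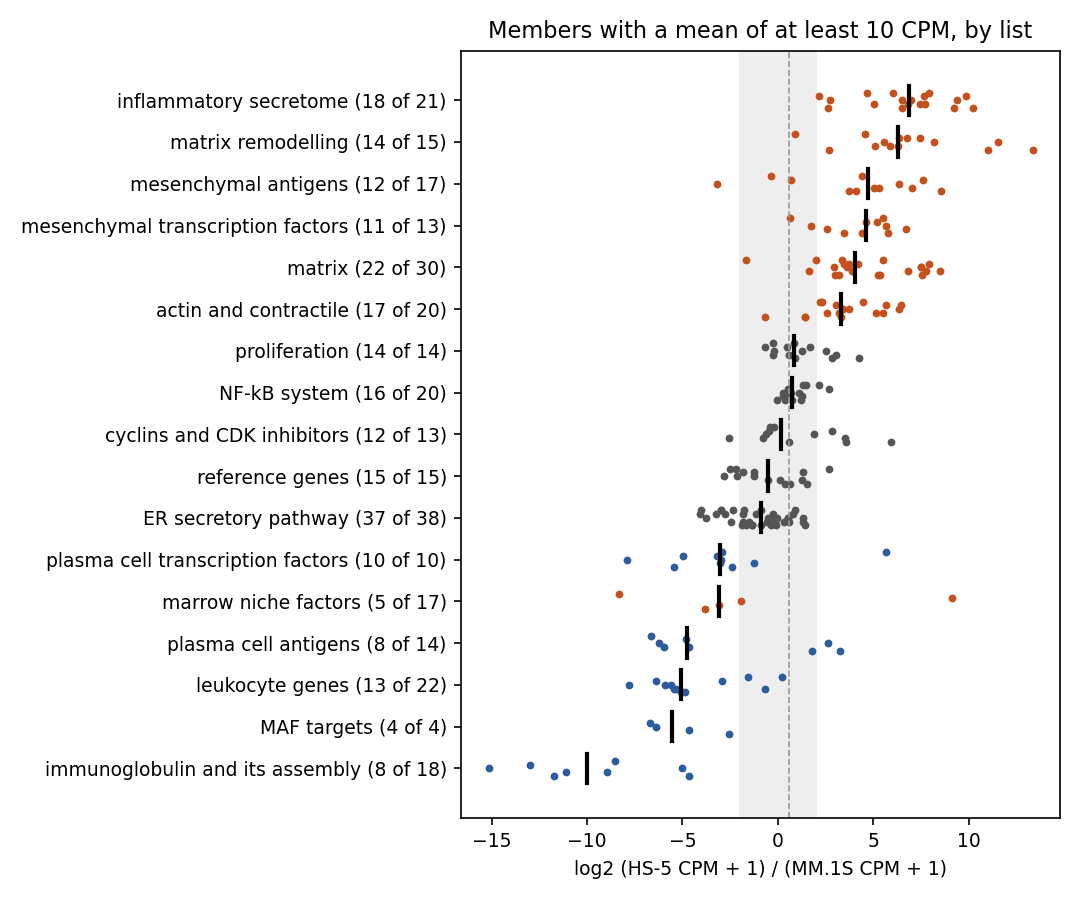
Log2 ratios of HS-5 over MM.1S (x axis) for those members of 17 gene lists whose mean reached 10 CPM, with the number of such members and of all members beside each name. Black bars are medians, the grey band marks 4-fold and the dashed line the median of all genes at 0.56; orange lists were assigned to HS-5, blue lists to MM.1S and grey lists to both, and the medians run from 6.88 (secretome) to -10.02 (immunoglobulin).

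The structural matrix was carried by HS-5 with gaps. Of 30 genes, 22 passed the minimum and 19 were at least 4-fold higher in HS-5 (median log2 ratio 4.03). Beside the collagen VI and collagen I chains, THBS1, an adhesive glycoprotein, had 606 CPM in HS-5 and 1.53 CPM in MM.1S and TNC, tenascin, 574 CPM in HS-5 and 2.2 CPM in MM.1S. The basement membrane chains COL4A1 and COL4A2 were 19.1-fold (interval 11.8 to 32.8) and 29.5-fold (interval 14.6 to 69.7) higher. The 8 genes whose mean over both lines was under the minimum included the interstitial proteoglycans DCN (6.19 and 1.05 CPM) and LUM (0.326 and 0.671). POSTN, MGP, COL3A1 and COL6A3 were also among them. The other 2 of the 8, BGN and VCAN, just missed the minimum (19.9 CPM in HS-5 and 0.0958 CPM in MM.1S for BGN, 16.6 CPM in HS-5 and 2.88 CPM in MM.1S for VCAN). COL6A3, another chain of collagen VI, stood at 0.977 CPM in HS-5 and 2.88 in MM.1S. FN1 was the lowest member, with a log2 ratio of -1.68.

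Surface antigens of mesenchymal cells split. Of 17, 12 passed the minimum, 9 were at least 4-fold higher in HS-5 and 1 in MM.1S. CAVIN1, which builds caveolae, had 664 CPM in HS-5 and 0.767 CPM in MM.1S, in contrast to its partner CAV1. ALCAM, an adhesion molecule, had 362 CPM in HS-5 and 0.863 CPM in MM.1S, and the aminopeptidase ANPEP 417 CPM in HS-5 and 2.2 CPM in MM.1S. CD9, a tetraspanin, was 9.33-fold (interval 8.47 to 10.3) higher in MM.1S (661 CPM in MM.1S and 70.8 CPM in HS-5). The receptors PDGFRA, PDGFRB, LEPR and NGFR, which mark marrow stromal cells in vivo, were under the minimum, at 1.3 to 7.81 CPM in HS-5.

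Most cytoskeletal genes were higher in HS-5. Of 20, 17 passed the minimum and 14 were at least 4-fold higher in HS-5, none in MM.1S (median 3.28). TPM2, a tropomyosin, had 353 CPM in HS-5 and 3.07 CPM in MM.1S, and CALD1, caldesmon, 231 CPM in HS-5 and 1.82 CPM in MM.1S. Vimentin (VIM), the intermediate filament of mesenchymal cells, had 3859 CPM in HS-5 and 426 CPM in MM.1S, a ratio of 9.05-fold (interval 8.77 to 9.35). The smooth muscle markers ACTA2, TAGLN and CNN1 had 7, 2 and 3 UMIs in all of HS-5 and 4, 3 and 2 in MM.1S, so their difference was not detectable at this depth. CNN2, a calponin, was the only tested member with the lower level in HS-5, at 14.3 CPM in HS-5 and 23.1 CPM in MM.1S, and TLN1 and TAGLN2 also lay within 4-fold.

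Transcription factors of the mesenchymal lineage were higher in HS-5 in 9 of the 11 that passed, of 13 listed, and none was at least 4-fold higher in MM.1S (median 4.63). TWIST2, a helix-loop-helix factor, had 113 CPM in HS-5 and 1 UMI in MM.1S, a ratio of 1184-fold (interval 212 to 46828). PRRX1, a homeobox factor of limb and marrow mesenchyme, had 298 CPM in HS-5 and 4.89 CPM in MM.1S. FOSL1, a subunit of AP-1, had 115 CPM in HS-5 and 1.15 CPM in MM.1S. WWTR1 (TAZ) and YAP1, the coactivators of the TEAD factors, were 79.8-fold (interval 47.2 to 147) and 66-fold (interval 29.9 to 182) higher in HS-5, while TEAD1 itself lay within 4-fold (161 CPM in HS-5 and 47.3 CPM in MM.1S). ZEB1 differed least, with 49.3 CPM in HS-5 and 31 CPM in MM.1S, and RUNX2 was under the minimum in both.

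The listed marrow niche factors, without IL6 (1209 CPM in HS-5, counted in the secretome list), were mostly near 0 in the stromal line. Of 17, only 5 passed the minimum, 3 of them were at least 4-fold higher in MM.1S and 1 in HS-5, and the median of -3.08 rests on these 5. It was -0.62 over the 11 members that reach 1 CPM and 0.39 over the 2 that reach 50 CPM. The homing chemokine CXCL12 had 75.8 CPM in MM.1S and 4.4 CPM in HS-5, a ratio of 17.2-fold (interval 11.8 to 26.3). The growth factor HGF had 35.1 CPM in MM.1S and 3.26 CPM in HS-5 and osteopontin (SPP1) 2397 CPM in MM.1S and 6.35 CPM in HS-5. FGF2, a fibroblast growth factor, was the member higher in HS-5, with 1525 CPM in HS-5 and 1.73 CPM in MM.1S, and its transcript overlaps the antisense gene NUDT6 by 804 bases. ICAM1 had 44 CPM in MM.1S and 10.6 CPM in HS-5, under 4-fold here and past it with the other scalings.

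The remaining 12 niche factors were under the minimum. TNFSF13B (BAFF) and TNFSF13 (APRIL), ligands of TNFRSF17, had 2.12 and 0.163 CPM in HS-5. VCAM1, the adhesion partner of integrin alpha 4, had 0 UMIs in HS-5 and 5 in MM.1S. KITLG, IL7, JAG1, IGF1 and ANGPT1 lay between 0.163 and 3.91 CPM in HS-5. The intervals of the ratios of KITLG and JAG1 were 0.556 to 5.19 and 0.76 to 2.4, so no difference was detectable at this depth.

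Markers of the mature descendants of marrow stroma were close to 0. Of 15 bone, fat and cartilage genes, 14 had a value and 1 passed the minimum: SOX9, a factor of cartilage and progenitor cells, with 36.3 CPM in HS-5 and 0.288 CPM in MM.1S. COL10A1 followed with 13.7 CPM in HS-5 and 0.479 CPM in MM.1S. The bone factor SP7, the fat cell factor PPARG and the adipokine ADIPOQ had 9, 20 and 1 UMIs in HS-5.

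Immunoglobulin genes had the largest ratios towards MM.1S and took 4.61% of its UMIs, against 0.00145% in HS-5. Ribosomal protein and mitochondrial genes took more of the MM.1S UMIs, at 18.8% and 6.82%. Of 18 genes of immunoglobulin chains and their assembly, 17 had a value and 8 passed the minimum, all at least 4-fold higher in MM.1S and 7 at least 32-fold (median -10.02, or -10.54 with genes at 0 set to the limit of 3 counts). IGLC2, a lambda light chain constant gene (chromosome 22, 22900976 to 22901437 on the plus strand), had 36552 CPM in MM.1S (36436 to 36668) and 0 UMIs in HS-5, at least 74837-fold higher. IGLC3 had 8170.3 CPM and IGLC7 364, also with 0 UMIs in HS-5. These constant genes are near-identical copies, so reads may have been split among them.

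The kappa gene IGKC had 498 CPM in MM.1S (484 to 511) and 0 UMIs in HS-5, and was found in 36.4% of thinned MM.1S cells, in a line whose light chain is of the lambda type. Of the heavy chain constant genes, IGHG4 alone passed the minimum, with 24 CPM in MM.1S, and IGHA1 had 3 UMIs there. DERL3, which retrieves misfolded proteins from the endoplasmic reticulum, had 189 CPM in MM.1S and 4.88 CPM in HS-5.

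All 10 plasma cell transcription factors passed the minimum, and 8 were at least 4-fold higher in MM.1S (median -3.02). MAF, a leucine zipper factor that a subset of myelomas overexpresses through a translocation, had 1097 CPM in MM.1S and 3.58 CPM in HS-5, a ratio of 306-fold (interval 202 to 489). POU2AF1, the B cell coactivator of OCT factors, had 72.3 CPM in MM.1S and 1.3 CPM in HS-5. XBP1 had 419 CPM in MM.1S and 52.4 CPM in HS-5 and MYC 788 CPM in MM.1S and 101 CPM in HS-5. PRDM1, which silences the B cell programme, lay within 4-fold (36.8 CPM in MM.1S and 15 CPM in HS-5).

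POU2F2 (OCT2), the octamer factor that partners POU2AF1 in B cells, went the other way. It had 426 CPM in HS-5 (409 to 442) and 7.28 CPM in MM.1S (5.74 to 9.12), 58.4-fold (interval 46.5 to 74.4) higher in the stromal line, and was found in 33.5% of thinned HS-5 cells and 0.672% of MM.1S cells. No annotated exon of another gene overlaps its exons.

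The 4 MAF targets listed were all at least 4-fold higher in MM.1S. The chemokine receptors CX3CR1 and CCR1 had 395 and 288 CPM in MM.1S and 2.77 and 2.44 in HS-5. The integrin chain ITGB7 had 24.6 CPM in MM.1S and 0 UMIs in HS-5 (at least 50.4-fold higher). Cyclin D2 (CCND2) had 825 CPM in MM.1S and 140.2 CPM in HS-5, a ratio of 5.89-fold (interval 5.49 to 6.32).

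Plasma cell surface antigens were uneven. Of 14, 8 passed the minimum, 5 were at least 4-fold higher in MM.1S and 2 in HS-5 (median -4.74). TNFRSF13B (TACI) had 117 CPM in MM.1S and 1 UMI in HS-5, and CD28, a costimulatory receptor, 63.5 CPM in MM.1S and 1.3 CPM in HS-5. The antigens higher in HS-5 were the integrin chain ITGA4 (CD49d), with 43.3 CPM in HS-5 and 3.64 CPM in MM.1S, and the neural adhesion molecule NCAM1 (CD56), with 21.5 CPM in HS-5 and 2.68 CPM in MM.1S. GPRC5D, FCRL5, LY9, CD27, CD48 and SLAMF7 were under the minimum, at 0.192 to 6.04 CPM in MM.1S.

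General leukocyte genes were mostly higher in MM.1S, although PTPRC was near 0. Of 22, 13 passed the minimum, 10 were at least 4-fold higher in MM.1S and none in HS-5 (median -5.08). The actin bundler LCP1 had 329 CPM in MM.1S and 0.488 CPM in HS-5, and ARHGDIB, a regulator of small GTPases in blood cells, 243 CPM in MM.1S and 1.95 CPM in HS-5. WAS, the actin regulator mutated in Wiskott-Aldrich syndrome, had 79.2 CPM in MM.1S and 0.326 CPM in HS-5 and LAPTM5, a lysosomal protein, 71.5 CPM in MM.1S and 0.488 CPM in HS-5. RAC2, a blood cell GTPase, had 57.5 CPM in HS-5 and 49.8 CPM in MM.1S, a difference whose sign turned with the scaling.

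Genes of the earlier B cell, which plasma cells silence, were mostly low in both lines. Of 15, 1 passed the minimum. This was BCL11A, with 32.6 CPM in MM.1S and 9.44 CPM in HS-5. Its log2 ratio of -1.69 was within 4-fold here and past it, towards MM.1S, with the TMM, median ratio and reduced CPM scalings. PAX5, the factor that fixes B cell identity, had 4.7 CPM in MM.1S and 5.7 in HS-5, and MS4A1 (CD20) 1.25 and 0.814. The summed level of the list was 58 CPM in MM.1S and 43 in HS-5.

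The endoplasmic reticulum pathway, which both secretory lines need, was higher in MM.1S in a subset of its parts. Of 38 genes, 37 passed the minimum, 9 were at least 4-fold higher in MM.1S, none in HS-5, and the median of -0.89 was -1.46 relative to that of all genes. With the TMM, median ratio and reduced CPM scalings, the 9 became 14, 15 and 14. SEC11C, a catalytic subunit of signal peptidase, had 1337 CPM in MM.1S and 77.8 CPM in HS-5, a ratio of 17.2-fold (interval 15.7 to 18.9), whereas its paralog SEC11A had 192 CPM in MM.1S and 152 CPM in HS-5. SPCS1, another subunit, had 1074 CPM in MM.1S and 134 CPM in HS-5 and SSR4, of the translocon-associated complex, 1359.8 CPM in MM.1S and 142 CPM in HS-5.

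Other members past 4-fold act in folding and redox chemistry. PRDX4, a peroxidase of the reticulum, had 1585 CPM in MM.1S and 97 CPM in HS-5 and FKBP11, a prolyl isomerase, 199.6 CPM in MM.1S and 13.7 CPM in HS-5. The main chaperones lay within 4-fold, with 1261 CPM in MM.1S and 681 CPM in HS-5 for HSPA5 (BiP) and 1839 CPM in MM.1S and 2731 CPM in HS-5 for HSP90B1. At the upper end, ATF4 and DDIT3 (CHOP), factors of the stress response, had log2 ratios of 1.41 and 1.33. TXNDC5 was near 0 in both, and a readthrough gene shares 2658 of its exon bases.

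The NF-kB system, whose p65 dynamics the study followed, lay mostly within 4-fold between the lines, as did 6504 of all 8734 genes tested. Of 20 genes, 16 passed the minimum, 2 were at least 4-fold higher in HS-5 and none in MM.1S, beside 18.7% and 6.81% of all genes. The median of 0.73 was 0.16 relative to that of all genes. RELA, which encodes p65, had 33.4 CPM in HS-5 (29 to 38.3) and 34.2 in MM.1S (30.8 to 38), a ratio whose interval of 0.817 to 1.16 includes 1. NFKB1, the precursor of p50, had 98.5 CPM in HS-5 and 14.9 CPM in MM.1S. TRAF3, an adaptor that restrains the non-canonical branch and is often lost in myeloma, had 32.9 CPM in HS-5 and 6.61 CPM in MM.1S, under 4-fold with the other scalings. The inhibitor NFKBIA had 225 CPM in HS-5 and 95 CPM in MM.1S. TRAF1, under the minimum, had 2.93 CPM in HS-5 and 14 CPM in MM.1S.

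D-type cyclins divided the lines. Cyclin D1 (CCND1) had 1484 CPM in HS-5 and 23.8 CPM in MM.1S, 62.4-fold (interval 55 to 71.1) higher in HS-5, while CCND2 was higher in MM.1S and CCND3 lay within 4-fold (58 CPM in HS-5 and 15.1 CPM in MM.1S). Of 13 cyclins, kinases and inhibitors, 12 passed the minimum, with 4 at least 4-fold higher in HS-5 and 1 in MM.1S. Over all genes these shares were 18.7% and 6.81%. The inhibitor CDKN2C (p18) had 39.9 CPM in HS-5 and 2.4 CPM in MM.1S. CDK4 had 2 and 25 UMIs, but its exons overlap those of TSPAN31 on the other strand by 1369 bases, so its low count is uncertain.

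Of 14 proliferation genes, all measured above the minimum, 4 were at least 4-fold higher in HS-5 and none in MM.1S, beside 18.7% and 6.81% of all genes, and the median of 0.85 was 0.29 relative to that of all genes. MKI67 (Ki-67) had 791 CPM in HS-5 and 40.4 CPM in MM.1S and TOP2A, topoisomerase II alpha, 1425 CPM in HS-5 and 171 CPM in MM.1S. In thinned cells, MKI67 was found in 46.8% of HS-5 and 3.44% of MM.1S. AURKA, a mitotic kinase, and RRM2, a ribonucleotide reductase subunit, were 7.21-fold (interval 6.38 to 8.16) and 5.91-fold (interval 5.34 to 6.54) higher in HS-5. The other 10 lay within 4-fold, among them the replication clamp PCNA with 129 CPM in HS-5 and 150.2 CPM in MM.1S and thymidine kinase TK1 with 68.7 CPM in HS-5 and 111 CPM in MM.1S.

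Genes often used as references spread to both sides. Of 15, 4 were at least 4-fold higher in MM.1S and 1 in HS-5 (median -0.53), beside 6.81% and 18.7% of all genes. B2M, the light chain of MHC class I, had 9556 CPM in MM.1S and 1658 CPM in HS-5 and GUSB, a lysosomal enzyme, 139.9 CPM in MM.1S and 19 CPM in HS-5. POLR2A, the large subunit of RNA polymerase II, had 24.6 CPM in HS-5 and 2.97 CPM in MM.1S. PPIA was closest to equal, with 271 CPM in HS-5 and 252 CPM in MM.1S, and its sign turned with the scaling.

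Ligands and receptors were then set side by side to show which line's RNA holds each end. Of 36 pairs, 12 had both ends above the minimum. In 4 of these the ligand was at least 4-fold higher in HS-5 with the receptor within 4-fold. Among these 4, IL6 was counted with both IL6R and IL6ST, and the receptors IL6ST, IL1RAP and LRP6 had the higher level in HS-5. In 3 the ligand was at least 4-fold higher in MM.1S and the receptor in HS-5. None of the 12 had the ligand past 4-fold in HS-5 and the receptor in MM.1S. Over all genes, 18.7% and 6.81% were at least 4-fold higher in HS-5 and in MM.1S. IL6, found in HS-5 alone, faced the receptor chain IL6R at 28.4 CPM in MM.1S and 14 CPM in HS-5 and the shared chain IL6ST at 69.1 CPM in MM.1S and 157 CPM in HS-5. IL1B, also of HS-5, faced the receptor chain IL1RAP at 19.5 CPM in HS-5 and 5.56 CPM in MM.1S. The receptor IL1R1 was under the minimum, at 8.95 CPM in HS-5 and 0.863 in MM.1S, so its pair with IL1B is not among the 12.

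Among ligands higher in MM.1S, lymphotoxin beta (LTB) had 56.4 CPM in MM.1S and 0 UMIs in HS-5. Its receptor LTBR had 90.4 CPM in HS-5 and 0.288 CPM in MM.1S. HGF of MM.1S faced its receptor MET at 27 CPM in HS-5 and 1.73 CPM in MM.1S. TNFSF10 (TRAIL), with 24.6 CPM in MM.1S and 0.977 CPM in HS-5, faced TNFRSF10B at 21.8 CPM in HS-5 and 3.83 CPM in MM.1S. Both ends of 1 pair, CXCL12 and its receptor CXCR4, were higher in MM.1S, CXCR4 with 25.3 CPM in MM.1S and 1.14 CPM in HS-5. FN1 of both lines faced the integrin chains ITGA5 and ITGA4, which were 58.9-fold (interval 37.8 to 97) and 11.9-fold (interval 8.44 to 17.2) higher in HS-5. TNF was all but undetected, with 0 UMIs in HS-5 and 1 in MM.1S, while its receptors were present, TNFRSF1A with 67.6 CPM in HS-5 and 6.13 CPM in MM.1S and TNFRSF1B with 39.2 CPM in MM.1S and 9.28 CPM in HS-5.

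**Figure D4:**
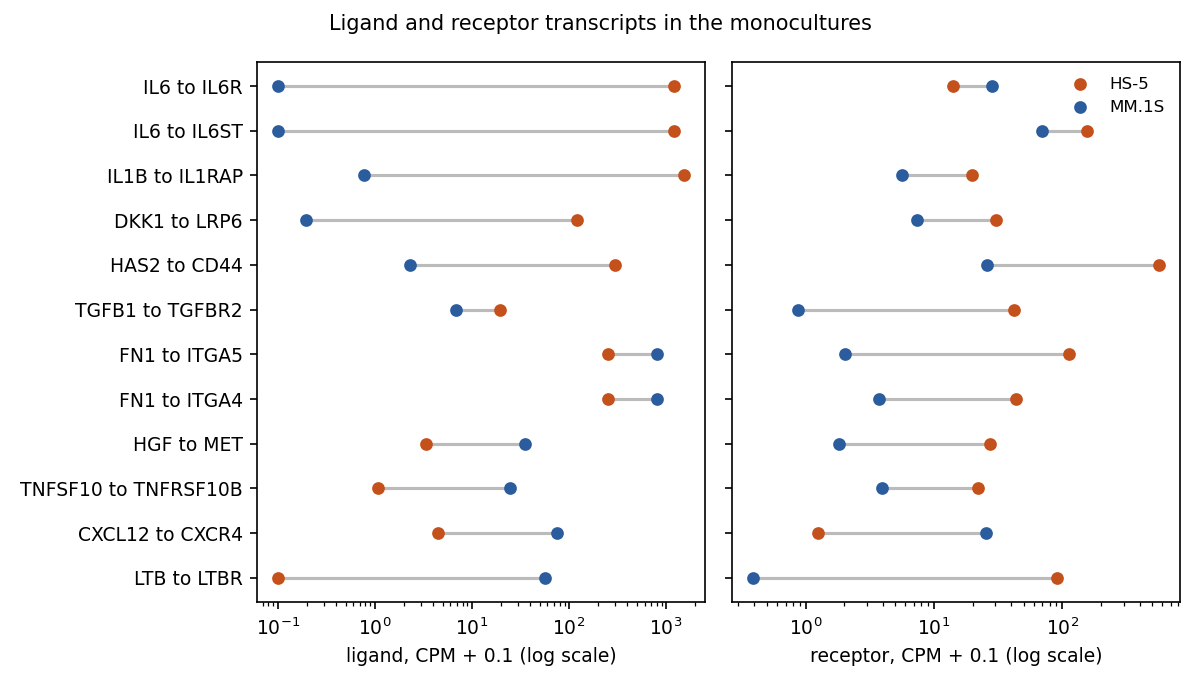
Levels of ligands (left) and receptors (right) as CPM + 0.1 on log axes in HS-5 (orange) and MM.1S (blue), for the 12 pairs whose ends both reached a mean of 10 CPM. HAS2, drawn as the ligand of CD44, is the enzyme that makes the ligand hyaluronan. LTB is at 0 UMIs in HS-5 and 56.4 CPM in MM.1S and its receptor LTBR at 90.4 and 0.288 CPM, and IL6 is at 0 UMIs in MM.1S.

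Most markers of cell types that neither line should hold were low. Endothelial, T and NK cell, myeloid, and erythroid and platelet markers had no member above the minimum. The summed levels of the first 3 lists were 17.3, 1.47 and 2.93 CPM in HS-5 and 8.24, 2.2 and 3.93 in MM.1S. The erythroid and platelet list, of which 3 of 4 genes had a value, summed to 1.79 CPM in HS-5 and 14.1 in MM.1S. The epithelial adhesion molecule EPCAM passed the minimum, with 72.6 CPM in MM.1S and 2.44 CPM in HS-5, found in 6.82% of thinned MM.1S cells. The keratins KRT5, KRT14 and KRT19 and the cadherin CDH1 were at 0.0958 to 1.82 CPM in MM.1S.

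Several genes with extreme ratios lay outside the lists described so far. The calcium buffer PVALB, known from muscle and interneurons, had 719.7 CPM in MM.1S and 0 UMIs in HS-5 (at least 1474-fold higher). The calcium-binding protein S100A4 had 2125 CPM in MM.1S and 3.74 CPM in HS-5, and SPINT2, a serine protease inhibitor, 447 CPM against 2 UMIs in HS-5. The trypsinogen gene PRSS2, which has near-identical copies, had 464 CPM and 0 UMIs in HS-5, and was found in only 11.6% of thinned MM.1S cells, at up to 52 UMIs in a cell and with a variance of 14.9 times its mean. In contrast, IGLC2 was found in 99.9% of them, with a median of 37 UMIs of 1000. On the HS-5 side, MT2A had 4515 CPM in HS-5 and 3.07 CPM in MM.1S, STC1, a secreted calcium and phosphate regulator, 1456 CPM in HS-5 and 0.767 CPM in MM.1S, and CLDN11, a tight junction claudin, 1033 CPM in HS-5 and 0.383 CPM in MM.1S.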

How the data were processed

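UMIs were counted by Drop-seq in 1 library per line. The files deposited hold raw UMI counts, as whole numbers, for each gene in each barcode. The submitters' processing notes name Cell Ranger 3.0.2, UMI-tools 1.0.0, STAR 2.5.3a, Subread, featureCounts 1.6.4, SAMtools 1.9 and GRCh38 (hg38), and the paper's methods Seurat. The annotation and the choice of barcodes are not given in the sources used here, so counts of overlapping, antisense and near-identical genes are uncertain. Cells with at least 200 genes were summed and scaled to CPM. No doublet caller was run, and whether doublets had been removed is not given in the sources used here. A gene listed for 1 line only has 0 counts in the other. Intervals are exact (Poisson for CPM, Clopper-Pearson for shares, conditional for ratios) and cover counting error only, since PCR and capture are not modelled. A fold against 0 counts uses 3 counts per library. The exact lower bounds of these folds are smaller, for example 3420-fold for IL6 and 60861-fold for IGLC2. GENCODE release 29 (GRCh38) gave coordinates and exon overlaps and has 98.7% of the tested symbols.

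The members and the 26 lists were chosen with earlier results of these data known, and 2 further lists after their genes' values were seen. The genes named are the 10 highest and 10 lowest ratios among genes whose mean reached 100 CPM, identity markers, the extremes of each list and ligand-receptor genes. Some genes that the rule picks are not reported here. Calls were tested on simulated counts. Alternatives changed the cells kept, the scaling (edgeR 4.0.16, DESeq2 1.42.0, factors only), pseudocount, minimum level and depth. Leaving FN1, CAV1 and SDC1 out of the per-cell markers was added after seeing the data. numpy 2.4.6 and scipy 1.17.1 were used.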

Additional observations from a re-analysis of the deposited data

How the results depend on the processing

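Under 13 alternatives, no gene past 4-fold among the lists, pairs and extremes changed direction. The scaling moved the balance between the lines. Genes at least 4-fold higher in MM.1S numbered 899 with TMM, 934 with median ratios and 935 without immunoglobulin, mitochondrial and ribosomal protein genes, against 595. A pseudocount of 0.1 gave 395 genes at least 32-fold higher in HS-5 and 166 in MM.1S, and one of 5 gave 100 and 31. A minimum of 50 CPM, which tests fewer genes, left 581 and 235 genes at least 4-fold higher in HS-5 and MM.1S and 59 at least 32-fold higher in MM.1S, and turned the median of the niche factors from -3.08 to 0.39, since few members remain. A minimum of 1 CPM, which tests more genes, gave 999 genes at least 4-fold higher in MM.1S. Without thinning, 1.53% of HS-5 and 0.38% of MM.1S cells had more UMIs of the other line's markers (at 500 UMIs 2.5% and 1.72%, at 2000 UMIs 1.33% and 0.132%, both depths chosen after seeing the data), and without FN1, CAV1 and SDC1 the MM.1S share was 0. Of the 204 genes past 4-fold among the lists, pairs and extremes, 11 fell under 4-fold in at least 1 alternative, and 21 others passed it. The cause was not tested. Keeping only cells of 200 to 2500 genes whose mitochondrial share was under 5%, 1113 MM.1S and 3082 HS-5 cells remained, and each of the 4 counts stayed within 1.5 times its value. Depth limits genes near 3 counts and shares in HS-5, where 1930 cells were too shallow to thin. No paired analysis was possible because each line is 1 library.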

Other observations

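Every cholesterol gene of a list written after some of its values were seen had the higher level in MM.1S. Of 20 genes, all above the minimum, 12 were at least 4-fold higher in MM.1S and none in HS-5, beside 6.81% and 18.7% of all genes. The log2 ratios ran from -7.12 to -0.72 with a median of -2.70. With the TMM, median ratio and reduced CPM scalings, the 12 became 15, 15 and 13. INSIG1, which holds back the sterol sensor SCAP in the endoplasmic reticulum, had 5588 CPM in MM.1S and 39.1 CPM in HS-5 and was found in 92.4% of thinned MM.1S cells and 4.11% of HS-5 cells. HMGCS1, an early enzyme of the pathway, had 734 CPM in MM.1S and 9.12 CPM in HS-5, and DHCR7, a late enzyme, 277 CPM in MM.1S and 12.9 CPM in HS-5. The regulator SREBF2 lay within 4-fold, at 38.5 CPM in MM.1S and 16.4 CPM in HS-5. Medium and line cannot be told apart here.

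Genes best known from neurons or muscle stood among the strongest of both lines. They were gathered after their values were seen and are given as values only. UCHL1, a neuronal deubiquitinase, had 512 CPM in HS-5 and 0.288 CPM in MM.1S, and BEX1, a brain-expressed X-linked gene, 469 CPM in HS-5 and 0.192 CPM in MM.1S. BASP1, a growth cone protein, had 496 CPM in HS-5 and 0.767 CPM in MM.1S and the adhesion molecule NTM 232 CPM in HS-5 and 0.383 CPM in MM.1S. On the MM.1S side, PCP4, a calmodulin regulator of Purkinje cells, had 332 CPM in MM.1S and 0.488 CPM in HS-5, and the neuropeptide galanin (GAL) 279 CPM in MM.1S and 5.21 CPM in HS-5.

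Median log2 ratios differed between chromosomes. Against 0.56 for all genes, they were 1.41 on chromosome 20 (230 genes), 1.36 on chromosome 10 (340) and 1.30 on chromosome 4 (328), and -0.26 on chromosome 7 (411) and -0.26 on chromosome 18 (123). On chromosome 20, 33% of genes were at least 4-fold higher in HS-5 and 1.74% in MM.1S. Whether copy number moves with these values was not tested.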
